A study of Homo sapiens with 9 samples.

Results

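The genes described here are the G1 cyclins, their kinases and the retinoblastoma axis of HAP1 cells: CCND1, CCND2, CCND3, CCNE1, CDK2, CDK4, CDK6, RB1, E2F1 and CDKN2A. They were chosen by name as core regulators of the passage from G1 into S phase, and all 10 were among the 26485 gene models of the count files. HAP1 cells are adherent, carry a near-haploid genome and derive from KBM-7, an established line of chronic myeloid leukaemia. Untreated wild-type cells were sorted into lysis buffer, total RNA was isolated on NAxtra magnetic nanoparticles and treated with DNase, and libraries were made with the SMART-Seq Stranded kit. The 9 libraries comprise 3 of 1 cell (Single Cell Rep 1, 2 and 3) and 2 each of 10, 100 and 1000 cells. All come from 1 cell line, and the labels call the replicates biological without saying whether they came from separate cultures, so p-values measure the spread between these libraries. The labels and the methods of the study differ in the DNase volume used for 1000 cells.

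In G1, D-type cyclins (CCND1, CCND2 and CCND3) bind and activate the kinases CDK4 and CDK6, which begin to phosphorylate the retinoblastoma protein encoded by RB1. The E-type cyclin CCNE1 with CDK2 continues this phosphorylation, and E2F transcription factors such as E2F1, no longer held by the retinoblastoma protein, drive the genes of DNA replication. CDKN2A encodes an inhibitor of CDK4 and CDK6, and its abundance, like that of the D-type cyclins, differs widely between tumour cell lines.

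The totals ranged from 42842970 to 61645865 assigned counts per library. From 13968 genes (Single Cell Rep 3) to 14478 genes had a count in the single cells, against 16283 to 18634 in the libraries of 10 to 1000 cells. ACTB, the gene of beta-actin, was at 4512, 4807 and 5014 CPM (counts per 1000000 counts of a library, with TMM scaling) in the single cells, against 4477 to 5007 CPM in the other 6 libraries. The myeloid and erythroid markers summed to 0 to 0.157 CPM in the single cells and to 0 to 1.38 CPM in the other 6, with MPO, GATA1 and HBG1 at 0 in all 9 libraries, so these defining markers of the parent leukaemia's lineage were not detected. Fibroblast markers summed to 53.8 to 171 CPM in the single cells and to 121 to 144 CPM in the other 6, which PDGFRA and COL1A1 mostly made up, while DCN, LUM and FAP were at 0 throughout. Plasma cell markers summed to 42.6 to 61.9 CPM in the single cells and to 46.9 to 54.6 CPM in the other 6, nearly all of it SDC1, with TNFRSF17 at 0 throughout. PCR copies were not told apart by molecular identifiers, so the counting intervals given below cover counting error only. In libraries of more than 1 cell, fewer cells with a transcript and less of it per cell cannot be told apart.

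None of the 10 genes passed the test between the single cells as a group and the libraries of 10, 100 and 1000 cells, but the individual cells differed widely from each other in their cyclins. CCND1 spanned 2.86 to 43.1 CPM and CCNE1 spanned 8.05 to 48.2 CPM over the 3 single cells, whereas CDK6, RB1, CDK2 and CDKN2A stayed within a narrow range. In edgeR's quasi-likelihood test with Benjamini-Hochberg adjustment over 15603 genes, 0 of the 10 genes passed the threshold of 0.05, where 6.67% of all genes did. At an unadjusted p under 0.05 there were 2, CDK2 and CDKN2A, where 24.5% of all genes had such a p, and DESeq2 called 1, CDKN2A, where it called 18.5% of all genes. The CPM ranges of single cells and other libraries overlapped for all 10, while 15% of all genes tested had no overlap. The median log2 fold change was 0.03 over the 10 genes and 0.01 over all genes tested.

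**Figure D1:**
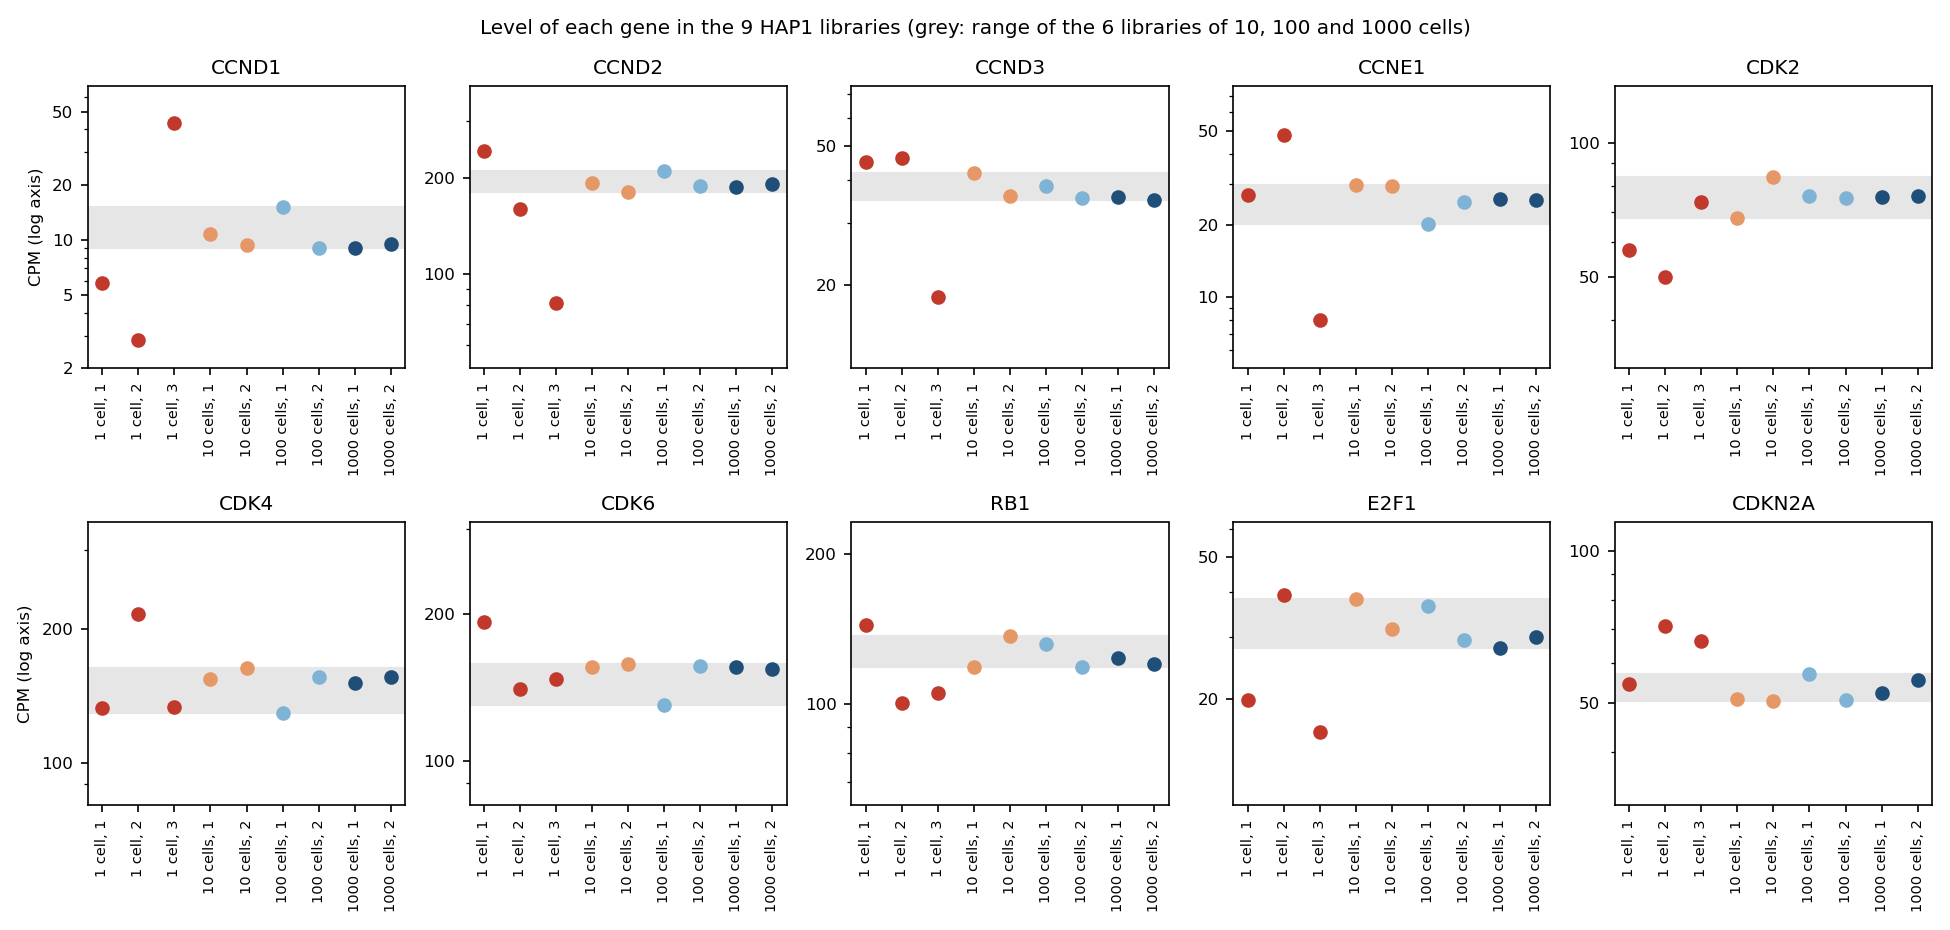
CPM on a log axis of each of the 10 genes in the 9 libraries, with the 3 single cells to the left, then 10, 100 and 1000 cells, and the range of the 6 libraries of more cells in grey. CCND1 in the single cells lies at 5.79, 2.86 and 43.1 CPM, outside the grey range of 9.06 to 15.1 CPM on both sides, while the CDK6 and CDKN2A points lie close to theirs.

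CCND1, on chr11:69641105-69654474 (hg38, plus strand), encodes cyclin D1, the D-type cyclin induced by many growth factor pathways. It measured 5.79, 2.86 and 43.1 CPM in Single Cell Rep 1, 2 and 3, against a lowest, median and highest value of 9.06, 9.48 and 15.1 CPM in the 6 libraries of more cells. Single Cell Rep 3 lay above all 6 and the other single cells below all 6. The counts behind these values were 300, 146 and 2249, with 95% exact Poisson intervals of 5.16 to 6.49, 2.42 to 3.37 and 41.3 to 44.9 CPM. The single cells averaged 17.3 ± 22.4 CPM (SD, n = 3), against 10.5 ± 2.33 CPM for the others (SD, n = 6), a log2 fold change of 0.715 (SE 0.63, edgeR adjusted p = 0.542). Its direction rested on Single Cell Rep 3, without which the log2 fold change was -1.28 (edgeR adjusted p = 0.0384). The fibroblast list summed to 81.9, 53.8 and 171 CPM in Single Cell Rep 1, 2 and 3, and its genes did not move together. PDGFRA, at 74.3, 39.4 and 156 CPM, and COL1A1, at 7.59, 3.77 and 15.3 CPM, had the order of CCND1, whereas THY1 had 0, 10.6 and 0 CPM. The other 5 of its 8 genes were below 1 CPM in all 9 libraries, with DCN, LUM and FAP at 0. A link between the genes of this list and the CCND1 levels was not tested.

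CCND2, on chr12:4273736-4305356 (plus strand), encodes cyclin D2 and overlaps exons of CCND2-AS1 on the other strand, while reads were counted by strand. Its levels of 241, 159 and 81.5 CPM in Single Cell Rep 1, 2 and 3 compared with 180, 190 and 210 CPM as the lowest, median and highest of the 6 libraries of more cells. The order of the single cells was not that of CCND1: Single Cell Rep 1 lay above all 6, and Single Cell Rep 2 and 3 below. The log2 fold change was -0.26 (SE 0.24, edgeR adjusted p = 0.569). Without Single Cell Rep 1 it was -0.68 (edgeR adjusted p = 0.0428), and without Single Cell Rep 3 it was 0.061 (edgeR adjusted p = 0.774).

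CCND3, on chr6:41934933-42048894 (minus strand), encodes cyclin D3, best known for its role in blood cell precursors. It measured 44.9, 46.3 and 18.6 CPM in Single Cell Rep 1, 2 and 3, against 34.98, 35.8 and 41.7 CPM as lowest, median and highest of the other 6. Single Cell Rep 3 was thus low in CCND2 and CCND3 and high in CCND1. The log2 fold change was -0.02 (SE 0.24, edgeR adjusted p = 0.972), 0.30 without Single Cell Rep 3 (edgeR adjusted p = 0.111) and 0.02 without 10 Cell Rep 1 (edgeR adjusted p = 0.978).

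To compare paralogs, counts were divided by the exon length of each gene model (4289 bases for CCND1, 6522 for CCND2 and 3161 for CCND3) and given as TPM, the same value scaled to a sum of 1000000 over all genes of a library, or as a share of the family. CCND2 was the leading D-type cyclin in all 9 libraries. It made up 70.4%, 61.5% and 44.0% of D-type cyclin transcripts in Single Cell Rep 1, 2 and 3, against 65.3% to 68.8% in the libraries of more cells. CCND1 made up 2.57%, 1.68% and 35.4% in the same single cells, against 4.99% to 7.33%. The 95% Clopper-Pearson interval of the 35.4% in Single Cell Rep 3 was 34.2% to 36.5%, and those of the other single cells were 2.29% to 2.88% and 1.42% to 1.97%. CCND3 held 27.0%, 36.9% and 20.7% of D-type transcripts in the single cells and 25.4% to 29.2% in the others. CCND2 thus exceeded CCND1 27.4-fold, 36.6-fold and 1.24-fold in TPM in Single Cell Rep 1, 2 and 3, against 9.19-fold to 13.7-fold in the other 6 libraries.

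The D-type sum did not stay constant. It was 108, 77.8 and 53.6 TPM in Single Cell Rep 1, 2 and 3, against 85.8 to 99.4 TPM in the libraries of more cells, so the cell with the largest CCND1 share had the smallest total. As groups, the shares differed by 7.63 percentage points for CCND1 (exact two-sided permutation p = 0.333), -8.89 for CCND2 (p = 0.0833, exact permutation) and 1.26 for CCND3 (p = 0.631, exact permutation), single cells minus the others. After adjustment over the 6 shares tested, these exact permutation p-values were 0.5, 0.19 and 0.631. The smallest p that 3 libraries against 6 allow is 0.0119. The direction for CCND1 turned without Single Cell Rep 3, to -3.44 points, and that for CCND3 turned without Single Cell Rep 2, to -3.08 points. The CCND2 difference kept its sign but was -1.58 points without Single Cell Rep 3 and -14.8 points without Single Cell Rep 1.

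**Figure D2:**
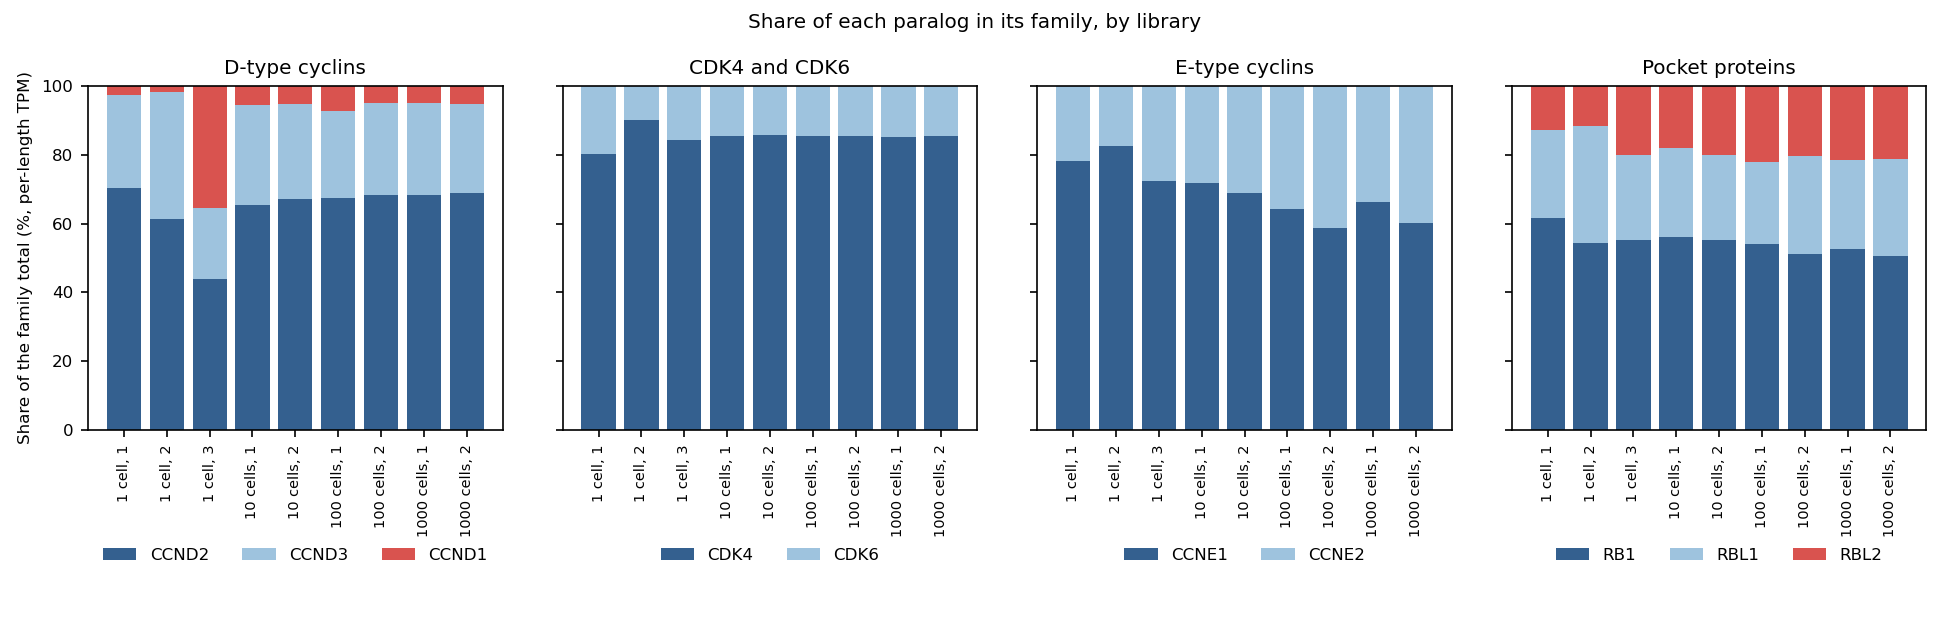
Stacked bars of each paralog's share of its family total in percent, from per-length TPM, in the 9 libraries for D-type cyclins, CDK4 and CDK6, E-type cyclins and pocket proteins, with single cells to the left. CCND1 takes 35.4% of D-type cyclins in Single Cell Rep 3 and under 8% in every other library, and CDK4 takes 80.2% to 90.01% of its family in all 9.

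CDK4, on chr12:57747727-57752447 (minus strand), and CDK6, on chr7:92604921-92836627 (minus strand), encode the catalytic partners of the D-type cyclins. CDK4 measured 133, 216 and 134 CPM in Single Cell Rep 1, 2 and 3, against 129, 155 and 163 CPM as lowest, median and highest of the other 6. Single Cell Rep 2 lay above all 6 and the other single cells near their lower end. The log2 fold change of CDK4 was 0.08 (SE 0.15, edgeR adjusted p = 0.78), and -0.19 without Single Cell Rep 2 (edgeR adjusted p = 0.169). CDK6 measured 193, 141 and 148 CPM in Single Cell Rep 1, 2 and 3, against 130, 156 and 158 CPM in the other 6, and only Single Cell Rep 1 lay outside them. Its log2 fold change was 0.08 (SE 0.11, edgeR adjusted p = 0.724), and -0.08 without Single Cell Rep 1 (edgeR adjusted p = 0.555).

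CDK4 and CDK6 took nearly equal counts in the libraries of more cells, where CDK4 had 49.2% to 50.8% of the counts of the pair. Per length, CDK4 held 85.0% to 85.8%, because the CDK6 model spans 11762 exon bases and that of CDK4 2002. The single cells had CDK4 shares of 80.2%, 90.01% and 84.2%, so they lay on both sides of the others. The difference was -0.633 points (exact two-sided permutation p = 0.512, adjusted 0.614), and 1.68 points without Single Cell Rep 1. The length-scaled shares rest on every exon of a model being transcribed, and shorter isoforms of CDK6 would raise its share.

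CDKN2A, on chr9:21967752-21994491 (minus strand), encodes the CDK4 and CDK6 inhibitor INK4a and, from another first exon, ARF, which acts on p53 through MDM2. The gene model joins the first exons of both, so the counts do not separate them. CDKN2A measured 54.5, 71.2 and 66.5 CPM in Single Cell Rep 1, 2 and 3, against 50.4, 51.6 and 57.1 CPM as lowest, median and highest of the other 6, so Single Cell Rep 2 and 3 lay above all 6. The single cells averaged 64.1 ± 8.59 CPM (SD, n = 3), against 52.8 ± 2.82 CPM for the others (SD, n = 6), a log2 fold change of 0.28 (SE 0.12, edgeR unadjusted p = 0.0361, adjusted p = 0.168). Without Single Cell Rep 1 the log2 fold change was 0.38 (edgeR adjusted p = 0.0292). DESeq2's Wald test gave 0.29 (adjusted p = 0.0309), and CDKN2A was the 1 gene of the 10 it called.

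CCNE1, on chr19:29811994-29824308 (plus strand), encodes cyclin E1, whose transcript peaks near the entry into S phase. It measured 26.9, 48.2 and 8.05 CPM in Single Cell Rep 1, 2 and 3, against 20.4, 25.7 and 29.6 CPM as lowest, median and highest of the other 6. Single Cell Rep 2 lay above and Single Cell Rep 3 below all 6, and Single Cell Rep 1 among them. The log2 fold change was 0.09 (SE 0.39, edgeR adjusted p = 0.913), and -0.57 without Single Cell Rep 2 (edgeR adjusted p = 0.283).

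CCNE2, the paralog of CCNE1, measured 10.4, 14.4 and 4.31 CPM in Single Cell Rep 1, 2 and 3, against 15.8, 18.4 and 24.8 CPM as lowest, median and highest in the other 6. Its values lay below all 6 in every single cell, but the log2 fold change of -1.02 did not pass the test (SE 0.35, edgeR adjusted p = 0.0956). It passed without Single Cell Rep 2, at -1.41 (edgeR adjusted p = 0.0221). The CCNE1 share of E-type cyclin transcripts was 78.3%, 82.5% and 72.3% in the single cells and 71.7%, 68.9%, 64.4%, 58.6%, 66.4% and 60.0% in 10 Cell Rep 1 and 2, 100 Cell Rep 1 and 2, and 1000 Cell Rep 1 and 2. All 3 single cells thus lay above all 6 other libraries, though Single Cell Rep 3 by under 1 point. The difference of 12.7 points had an exact two-sided permutation p of 0.0119, the smallest that the design allows, and an adjusted p of 0.0714 over the 6 shares. The summed E-type level was 36.1, 58.9 and 10.8 TPM in the single cells, against 33.7 to 45.8 TPM, so Single Cell Rep 3 had the lowest E-type total as well as the lowest D-type total.

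CDK2, on chr12:55966769-55972789 (plus strand), encodes the kinase that E-type and A-type cyclins activate. It measured 57.6, 49.8 and 73.7 CPM in Single Cell Rep 1, 2 and 3, against 67.9, 75.7 and 84.03 CPM as lowest, median and highest of the other 6. Single Cell Rep 1 and 2 lay below all 6 and Single Cell Rep 3 among them. The single cells averaged 60.4 ± 12.2 CPM (SD, n = 3), against 75.8 ± 5.12 CPM for the others (SD, n = 6), a log2 fold change of -0.33 (SE 0.13, edgeR unadjusted p = 0.0278, adjusted p = 0.144). Without Single Cell Rep 3 the log2 fold change was -0.50 (edgeR adjusted p = 0.0171).

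RB1, on chr13:48303747-48481890 (plus strand), encodes the retinoblastoma protein. It measured 144, 101 and 105 CPM in Single Cell Rep 1, 2 and 3, against 119, 122 and 137 CPM as lowest, median and highest of the other 6. Single Cell Rep 1 lay above all 6 and the other single cells below all 6. The log2 fold change was -0.10 (SE 0.12, edgeR adjusted p = 0.667), and -0.28 without Single Cell Rep 1 (edgeR adjusted p = 0.0481).

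Among the pocket proteins, which also include RBL1 (p107) and RBL2 (p130), RB1 held 61.7%, 54.2% and 55.3% of transcripts in the single cells and 50.5% to 56.0% in the others. The difference was 3.86 points (exact two-sided permutation p = 0.0952, adjusted 0.19), and 1.56 points without Single Cell Rep 1. RBL1 measured 72.4, 77.7 and 57.0 CPM in the single cells, against 67.4, 74.8 and 82.1 CPM as lowest, median and highest of the other 6 (log2 fold change -0.12, edgeR adjusted p = 0.587). RBL2, the pocket protein that predominates in resting cells, measured 31.0, 21.9 and 39.3 CPM in the single cells, against 39.0, 51.2 and 55.1 CPM. Its log2 fold change of -0.69 lay just outside the threshold (SE 0.19, edgeR adjusted p = 0.0507), and small changes of setting moved it across. It passed without Single Cell Rep 3, at -0.91 (edgeR adjusted p = 0.0108). It also passed with the replicate block (edgeR adjusted p = 0.0168), a fit in which that cell adds nothing to the comparison of groups. With all 9 libraries compared, RBL2 passed under library totals alone (edgeR adjusted p = 0.0458) or thinning to the smallest total (edgeR adjusted p = 0.0477). Other settings moved it away from the threshold. The edgeR adjusted p was 0.0631 without a filter and 0.143 in a single fit of the 4 cell numbers. Without 100 Cell Rep 2, 1000 Cell Rep 1 or 1000 Cell Rep 2, the edgeR adjusted p was 0.105, 0.115 and 0.115.

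E2F1, on chr20:33675486-33686404 (minus strand), encodes an activating E2F factor, and both E2F1 and CCNE1 are known targets of E2F factors. It measured 19.9, 39.2 and 16.2 CPM in Single Cell Rep 1, 2 and 3, against 27.9, 30.7 and 38.3 CPM as lowest, median and highest of the other 6. Single Cell Rep 2 lay just above all 6 and the other single cells below all 6. The log2 fold change was -0.36 (SE 0.26, edgeR adjusted p = 0.436), -0.84 without Single Cell Rep 2 (edgeR adjusted p = 0.0139) and -0.13 without Single Cell Rep 3 (edgeR adjusted p = 0.742).

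E2F1, CCNE1 and CCND3 were all at their highest in Single Cell Rep 2 and at their lowest in Single Cell Rep 3. CCND3 measured 46.3 and 18.6 CPM in these cells. The promoter windows of E2F1 and CCNE1, given above as known E2F targets, are shown, a choice made after the values were seen. They are RefSeq sequences on GRCh38.p14, 250 bases before to 50 bases after the annotated start, 5′ to 3′ on the strand of the gene, for E2F1 at chr20:33686336-33686635 (minus strand) and for CCNE1 at chr19:29811741-29812040 (plus strand). Capitals mark matches to the E2F motifs TTTCCCGC, TTTCGCGC, TTTGCCGC and TTTGGCGC on either strand.
E2F1: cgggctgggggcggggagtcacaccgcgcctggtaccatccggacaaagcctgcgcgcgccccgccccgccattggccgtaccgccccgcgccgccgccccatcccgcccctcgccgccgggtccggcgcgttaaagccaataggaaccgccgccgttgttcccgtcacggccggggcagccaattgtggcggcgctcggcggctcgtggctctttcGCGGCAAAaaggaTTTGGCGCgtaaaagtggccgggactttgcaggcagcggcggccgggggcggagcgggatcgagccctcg
CCNE1: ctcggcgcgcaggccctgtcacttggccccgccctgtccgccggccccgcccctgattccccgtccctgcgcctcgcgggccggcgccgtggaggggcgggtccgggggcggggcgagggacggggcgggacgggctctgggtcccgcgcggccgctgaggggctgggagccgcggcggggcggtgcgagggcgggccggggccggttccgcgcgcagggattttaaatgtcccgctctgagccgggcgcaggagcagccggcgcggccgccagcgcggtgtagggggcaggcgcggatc
The E2F1 window held 2 matches, GCGGCAAA, which is TTTGCCGC on the opposite strand, beginning at base -33, and TTTGGCGC beginning at base -20 from the start site. The matches do not overlap. No match was in the CCNE1 window, nor in the other 9 windows of CCND3, CDK4, CDK6, RB1 and CDKN2A, and the RB1 window lies at a start inside the gene. Of all 35116 promoter windows, 3.31% held a match. The table covered 7 of the 10 genes, and CCND1, CCND2 and CDK2 were not among them.

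Per length, CDK4 was the most abundant of the 10 in the libraries of more cells, at 157 ± 12.1 TPM (SD, n = 6, as for the other values of this order). CDK2 followed at 68.2 ± 5.07 TPM, CCND2 at 60.8 ± 3.20 TPM, RB1 at 54.2 ± 3.58 TPM and CDKN2A at 52.6 ± 3.09 TPM. CCNE1 at 27.6 ± 3.47 TPM, CDK6 at 26.7 ± 1.89 TPM, E2F1 at 24.7 ± 3.09 TPM and CCND3 at 24.2 ± 1.52 TPM formed a lower tier, and CCND1 came last at 5.05 ± 1.13 TPM. Of neighbours in this order, CDK4 and CDK2, CDKN2A and CCNE1, and CCND3 and CCND1 had ranges that did not overlap over the 6 libraries. The ranges of the other neighbours overlapped. Even so, CDK2 exceeded CCND2 in 6 of these 6 libraries and CCND2 exceeded RB1 in 5, with gaps between means of 7.35 and 6.6 TPM that were larger than either SD of the pair. The gaps from RB1 to CDKN2A, CCNE1 to CDK6, CDK6 to E2F1 and E2F1 to CCND3, of 1.62, 0.849, 2.04 and 0.436 TPM, were smaller than the larger SD of each pair. CDK4 exceeded CDK2 in all 3 single cells too, whereas CCND3 exceeded CCND1 in only 2 of them, the exception being Single Cell Rep 3 with 11.1 TPM of CCND3 and 18.9 TPM of CCND1.

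**Figure D3:**
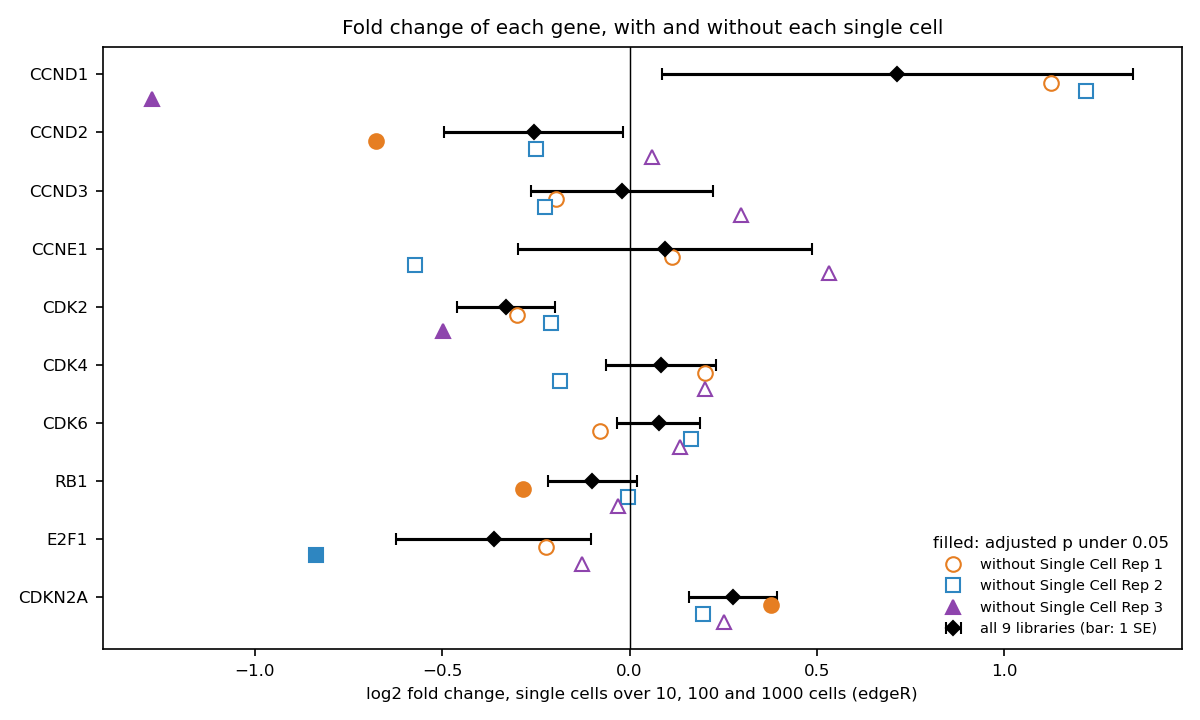
Log2 fold change of each gene for single cells over 10, 100 and 1000 cells, from edgeR, with all 9 libraries (black, bar of 1 SE) and without each single cell in turn (coloured, filled where the adjusted p is under 0.05). CCND1 is at 0.715 with all libraries and at -1.28 without Single Cell Rep 3, and 6 filled points belong to 6 different genes.

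Leaving out 1 single cell changed which genes passed the test. Without Single Cell Rep 1, 3 of the 10 passed, CCND2, RB1 and CDKN2A, where 17.8% of all genes did. Without Single Cell Rep 2, E2F1 was the 1 gene that passed, where 19.8% of all genes did. Without Single Cell Rep 3, CCND1 and CDK2 passed, where 15% of all genes did. No gene of the 10 passed in more than 1 of these fits. Without 100 Cell Rep 2, 1000 Cell Rep 1 or 1000 Cell Rep 2, 0 genes passed of all those tested, with 2974 to 3028 at an unadjusted p under 0.05, and 0 also passed in a single fit of the 4 cell numbers, in which 3165 genes had an unadjusted p under 0.05.

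The 4 cyclin genes and E2F1 varied most among the single cells. The SD of log2 CPM among the 3 single cells was 2.02 for CCND1, 1.31 for CCNE1, 0.79 for CCND2, 0.75 for CCND3 and 0.67 for E2F1. It was 0.40 for CDK4, 0.29 for CDK2, 0.28 for RB1, 0.25 for CDK6 and 0.20 for CDKN2A. Among the 9875 genes of at least 10 CPM, the SDs of CCND1 and CCNE1 stood at the percentiles 98.8 and 95.4, and that of CDKN2A at 19.6. These genes were taken by their mean over all 9 libraries. CCND1 reached that mean through Single Cell Rep 3, at 43.1 CPM, while its median in the libraries of more cells was 9.48 CPM. Its percentile thus rests on the same cell that brought it into the pool. CCND1, CCNE1, E2F1 and CCND3 also had the lowest mean levels of the 10, at 12.7, 26.5, 29.8 and 36.9 CPM. CCND2 had the highest, at 181 CPM. The percentiles were not matched on level, and the part of level in the spread was not tested. The median SD was 0.53 for the 10 genes and 0.40 for those 9875 genes. Over the 6 libraries of more cells, the median SD was 0.10 for the 10 genes and 0.13 for the 9875.

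A gene was counted as standing apart in a single cell where its log2 CPM lay outside the range of the 6 libraries of more cells and over 1 from their mean. In Single Cell Rep 1, 0 of the 10 genes stood apart, where 25.5% of all genes tested did. In Single Cell Rep 2 this was CCND1 alone, at a log2 difference of -1.83, again where 25.5% of all genes did. In Single Cell Rep 3, 3 of the 10 stood apart, CCND1 higher by 2.06 and CCND2 and CCNE1 with differences of -1.23 and -1.67, where 31.6% of all genes did. The share over all genes includes many of low counts, and among the 9875 genes of at least 10 CPM it was 8.58%, 7.61% and 13.8% for Single Cell Rep 1, 2 and 3. Just inside the limit lay CCND3 and E2F1 in Single Cell Rep 3, at -0.99 and -0.98, and CCNE1 in Single Cell Rep 2, at 0.90.

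**Figure D4:**
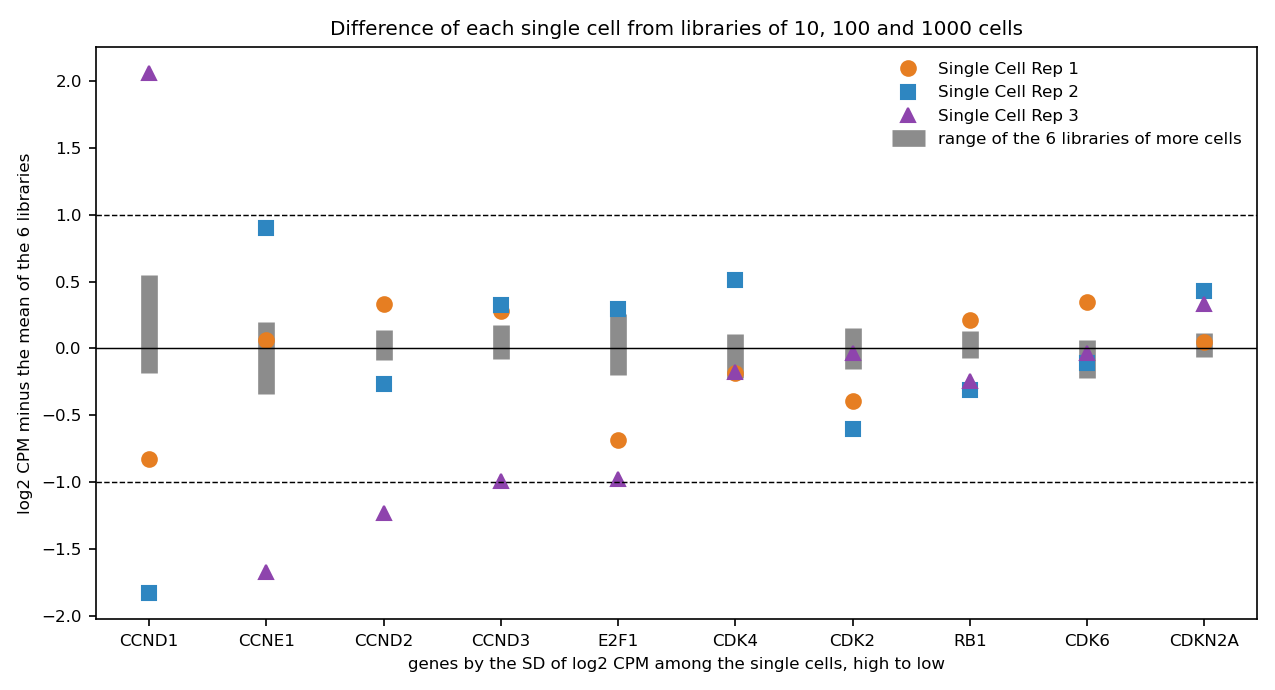
Log2 CPM of each single cell minus the mean of the 6 libraries of more cells, for the 10 genes ordered by their SD among single cells, with the range of the 6 libraries as a grey bar and the limit of 1 as dashed lines. Single Cell Rep 3 is at 2.06 for CCND1 and at -1.67 for CCNE1, Single Cell Rep 2 is at -1.83 and 0.90 for the same genes, and the 5 genes to the right lie within 1 of the mean in every cell.

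Across the 10 genes the single cells had different profiles. Single Cell Rep 1 had the highest CCND2, CDK6 and RB1 of all 9 libraries, with E2F1, CCND1 and CDK2 below the libraries of more cells. Single Cell Rep 2 had the highest CCNE1, CDK4, E2F1, CCND3 and CDKN2A of all 9 libraries and the lowest CCND1, CDK2 and RB1. Single Cell Rep 3 had the highest CCND1 of all 9 and the lowest CCND2, CCND3, CCNE1 and E2F1. The share of all genes with such extremes in a single cell was not computed. Over the 9875 genes of at least 10 CPM, the median SD of log2 CPM was 0.40 among single cells and 0.13 over the other 6. The summed CPM of the 10 genes was 921, 874 and 694 in Single Cell Rep 1, 2 and 3, against 844 to 879 in the other 6.

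The other G1/S control genes, a list of 29 inhibitors, E2F and DP factors, pocket proteins and regulators of the cyclins, had few calls. Of the 29, 1 passed the test higher in single cells and 0 lower, where 2.22% of all genes were called higher and 4.45% lower, and the median log2 fold change was -0.14. At an unadjusted p under 0.05 there were 1 higher and 6 lower, where 10.8% of all genes were higher and 13.8% lower at such a p. DESeq2 called LIN37 higher and CCNE2, RBL2, E2F6 and LIN9 lower, where it called 7.46% of all genes higher and 11.1% lower. The gene that passed was LIN37, a subunit of the DREAM complex, which represses cell cycle genes in resting cells. It measured 19.8, 15.1 and 27.2 CPM in the single cells, against 2.07, 6.32 and 10.1 CPM as lowest, median and highest of the other 6, so all single cells lay above all 6 (log2 fold change 1.73, SE 0.40, edgeR adjusted p = 0.0303). The call was lost without 10 Cell Rep 1, 100 Cell Rep 2, 1000 Cell Rep 1 or 1000 Cell Rep 2, where the log2 fold changes of 1.70, 1.76, 1.77 and 1.71 had edgeR adjusted p-values of 0.0553, 0.0729, 0.072 and 0.0772. LIN37 stood apart on the high side in every single cell. CDKN2B stood apart in every single cell as well, but low in Single Cell Rep 1 and 2 and high in Single Cell Rep 3.

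Of the 29, 5 stood apart in Single Cell Rep 1, 6 in Single Cell Rep 2 and 11 in Single Cell Rep 3, where 25.5%, 25.5% and 31.6% of all genes did. Those other than LIN37 are named after their values were seen. In Single Cell Rep 1 these were CDKN1A, which encodes the CDK inhibitor p21, at 8.69 CPM against 1.89 to 3.37 CPM, and CDKN2B, E2F6 and LIN52 on the low side. In Single Cell Rep 2 these were CDKN2C, which encodes a CDK4 and CDK6 inhibitor of the INK4 family, at 49.5 CPM against 22.7 to 26.0 CPM, and CDKN2B, CDKN2D, RBL2 and CKS1B on the low side. In Single Cell Rep 3, CDKN2B, the neighbour of CDKN2A in the genome and an INK4 inhibitor too, was at 10.9 CPM against 3.29 to 4.31 CPM, and CDKN2D was at 6.59 CPM against 1.32 to 4.00 CPM. CDKN2C was low at 4.18 CPM, and CDKN1A had 1 count, or 0.019 CPM.

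FBXW7, the ubiquitin ligase subunit that marks cyclin E for degradation, was at 11.9 CPM in Single Cell Rep 3, against 51.9 to 61.3 CPM in the libraries of more cells. CCNE2, LIN9, CDKN1B, CDKN1C and E2F6 were low there as well. The INK4 genes differed in their spread over the single cells, since CDKN2A lay between 54.5 and 71.2 CPM, CDKN2C between 4.18 and 49.5 CPM and CDKN2B between 0.667 and 10.9 CPM.

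Of the 18 E2F target genes of S phase entry, 0 passed edgeR's test in either direction, and their median log2 fold change was -0.11. At an unadjusted p under 0.05 there were 2 higher and 3 lower, where 24.5% of all genes had such a p in either direction. DESeq2 called MYBL2 higher and MCM3 and POLA1 lower, where it called 18.5% of all genes (genes that DESeq2 alone called are named after their values were seen). MCM4 and RRM2, of the replicative helicase and of ribonucleotide reductase, had the highest mean levels of the list. MCM4 measured 588, 841 and 550 CPM in Single Cell Rep 1, 2 and 3, against 638 to 705 CPM, and RRM2 was at 452, 629 and 545 CPM, against 476 to 549 CPM. Single Cell Rep 2, with the most E2F1 and CCNE1, had the highest MCM4 and RRM2 of all 9 libraries. The list did not move together in that cell. It also had the lowest CCNA2 and POLA1 of all 9, genes named after their values were seen. CCNA2 was at 148 CPM, against 187 to 223 CPM in the libraries of more cells, and POLA1 at 215 CPM, against 255 to 320 CPM. By cell, the median difference of the 18 genes from the libraries of more cells was -0.12, 0.14 and -0.17 on the log2 scale, with 6, 11 and 4 of the 18 above the mean.

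Of 14 genes of G2 and mitosis, 2 passed edgeR's test lower in single cells and 0 higher, where 4.45% of all genes were called lower and 2.22% higher, and the median log2 fold change was -0.08. At an unadjusted p under 0.05 there were 1 higher and 3 lower, against 10.8% and 13.8% of all genes. DESeq2 called FOXM1 higher and AURKA, CCNB1 and CDC20 lower, against 7.46% and 11.1% of all genes. AURKA, a kinase of spindle assembly, measured 50.6, 54.1 and 83.1 CPM in the single cells, against 83.8, 105 and 115 CPM as lowest, median and highest of the other 6 (log2 fold change -0.72, SE 0.16, edgeR adjusted p = 0.0274). CCNB1, the mitotic cyclin B1, was at 157, 190 and 247 CPM, against 243, 291 and 298 CPM (log2 fold change -0.51, SE 0.13, edgeR adjusted p = 0.0372). Both calls were lost without 100 Cell Rep 2, 1000 Cell Rep 1 or 1000 Cell Rep 2, where 0 genes of all those tested passed. The log2 fold changes there were -0.71, -0.72 and -0.69 for AURKA (edgeR adjusted p = 0.0695, 0.0694 and 0.0732) and -0.50, -0.52 and -0.50 for CCNB1 (edgeR adjusted p = 0.0853, 0.081 and 0.0897). The CCNB1 call was also lost without 10 Cell Rep 1, at -0.49 (edgeR adjusted p = 0.071), or 100 Cell Rep 1, at -0.49 (edgeR adjusted p = 0.0739). Single Cell Rep 3 had the highest value of the single cells in both genes. Its median difference over the 14 genes was 0.27, with 8 of the 14 above the mean of the libraries of more cells, against -0.09 with 4 above in Single Cell Rep 1 and -0.34 with 3 above in Single Cell Rep 2. The part of cell cycle position in the differences between single cells was not tested.

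**Figure D5:**
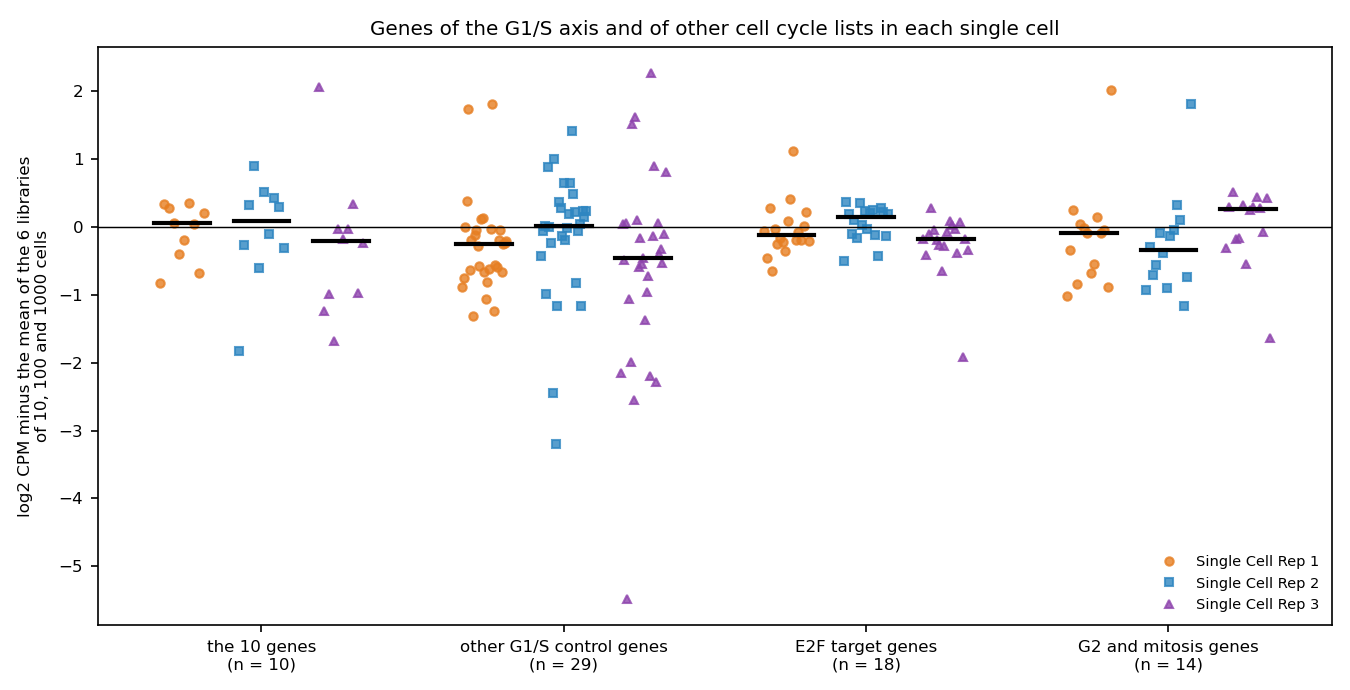
Log2 CPM of each single cell minus the mean of the 6 libraries of more cells, for the 10 genes, 29 other G1/S control genes, 18 E2F target genes and 14 G2 and mitosis genes, 1 point a gene and a bar at the median. The E2F target median is -0.12, 0.14 and -0.17 in Single Cell Rep 1, 2 and 3, and the G2 and mitosis median is -0.09, -0.34 and 0.27.

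CCND1 and CCNE1 had the largest SD of log2 CPM over the 9 libraries, and the genes closest to them in pattern were sought among 9874 genes of at least 10 CPM. Those with the highest Pearson r to CCND1 were CIT (0.98), PTDSS2 (0.98) and TULP4 (0.97), and those closest to CCNE1 were LIMK2 (0.99), COQ10B (0.99) and NDUFA11 (0.99). These values describe 9 libraries whose variation lies mostly in the 3 single cells, so they carry no test. COQ10B, for example, measured 16.4, 32.2 and 5.02 CPM in Single Cell Rep 1, 2 and 3, against a mean of 15.0 ± 1.84 CPM (SD, n = 6), and TULP4 at 116, 106 and 223 CPM, against 137 ± 6.65 CPM (SD, n = 6).

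Libraries of 10 and 100 cells were also compared with 1000 cells. The smallest adjusted p of any gene in edgeR's test was 0.0758 for 10 cells and 0.343 for 100 cells. Since no gene passed at all, the test cannot show from how many cells the levels settle. In edgeR's test 0 of the 10 genes passed for 10 against 1000 cells, where 0% of 15449 genes did, and 0 passed for 100 against 1000 cells, where 0% of 15597 did. At an unadjusted p under 0.05 there were 1735 genes for 10 cells and 314 for 100 cells, with 0 of the 10 among them in either, and DESeq2 called 195 genes and 1 gene, again with 0 of the 10. E2F1 had the largest log2 fold change of the 10 between 10 and 1000 cells, at 0.28 (SE 0.13, edgeR adjusted p = 0.486). It measured 38.3 and 31.5 CPM in 10 cells, against 27.9 and 29.8 CPM in 1000 cells. CCND1 had the largest between 100 and 1000 cells, at 0.38 (SE 0.24, edgeR adjusted p = 0.952), from 15.1 and 9.06 CPM in 100 cells, against 9.06 and 9.54 CPM in 1000 cells.

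With 1 library left out, the remaining one is assumed to vary like the other group, and the calls rose over all genes as well. Without 10 Cell Rep 1, RB1 passed for 10 against 1000 cells, where 25.7% of all genes did, and without 10 Cell Rep 2, CCND3 and E2F1 passed, where 29.5% did. Without 100 Cell Rep 2, CCND1, CCND2, CCNE1, CDK4, CDK6 and E2F1 passed for 100 against 1000 cells, where 30.4% of all genes did. 100 Cell Rep 1, the library then compared alone, had the highest CCND1 and the lowest CDK4, CDK6 and CCNE1 of the 6 libraries of more cells.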

How the data were processed

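RNA from single HAP1 cells (3 libraries) and from 10, 100 and 1000 cells (2 libraries each) was sequenced. Per the labels, reads were quality-checked (FastQC 0.11.9) and trimmed (Trim Galore 0.6.7) by the authors. Alignment to hg38 used HISAT2 2.2.1, sorting SAMtools 1.16.1, and gene counting the featureCounts program of Subread 2.0.6. The deposited values are whole-number counts per gene, not normalized, of single reads on the reverse strand, without reads that map to several places or to several genes. The annotation release is not given in the sources used here. Totals ranged from 42842970 to 61645865 counts, which sets a counting error given as 95% exact intervals.

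The packages edgeR 4.0.16, limma 3.58.1 and DESeq2 1.42.0 were run under R 4.3.3. CPM used TMM library sizes, log2 CPM a prior count of 2, and TPM the deposited exon lengths. Genes kept by filterByExpr entered edgeR's quasi-likelihood test, with p-values adjusted by Benjamini-Hochberg and a threshold of 0.05, on the libraries of each comparison, and the code was tested on simulated data. Paralog shares were compared by an exact two-sided permutation test over 84 arrangements. Alternatives covered normalization, DESeq2, filters, thinning, the samples in the fit, replicate number as a term, length scaling, thresholds and leaving out each library. The replicate numbers showed no sign of pairing the libraries. The genes, gene lists and marker lists were chosen with earlier results of these data known. Named were the 10 genes, CCNE2, RBL1 and RBL2, up to 4 genes a list and direction that passed the test or else the 2 most abundant, and the 3 nearest genes of the 2 most variable members. Figures were drawn with matplotlib, and promoters came from RefSeq tables of GRCh38.p14.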

Additional observations from a re-analysis of the deposited data

Results flagged for a closer look

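100 Cell Rep 1 lay far from the other 5 libraries of more cells in 4 values. Its CCND1 level of 15.1 CPM was the highest of the 6, with a gap to the nearest library of 0.723 of the whole range. Its CDK4 level of 129 CPM and its CDK6 level of 130 CPM were the lowest, with gaps of 0.636 and 0.871 of the range. Its CCND1 share of D-type cyclins, 7.33%, was the highest, with a gap of 0.769. In all, 16 values were examined over these 6 libraries, and chance alone would flag about 1 in 20. The 2 CCND1 values are not independent of each other, and no cause was tested.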

How the results depend on the processing

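For single cells against 10, 100 and 1000 cells, 0 of the 10 genes passed, and the count was also 0 under other size factors, library totals alone, both other filters, thinning and a fit of 4 cell numbers. DESeq2 called 1, and leaving out 1 library gave 0 to 3. With the replicate block, 2 were called, CCND1 at -1.33 (edgeR adjusted p = 0.0217) and CDK2, while CCND2 turned to 0.044 and CCND3 to 0.30. Only Single Cell Rep 3 has the replicate number 3, so in this fit it adds nothing to the comparison of groups. The block fit is thus close to that without Single Cell Rep 3, where CCND1 was at -1.28, CCND2 at 0.061 and CCND3 at 0.30. No sign that the replicate numbers pair the libraries was seen, since the 12 same-numbered pairs correlated at -0.085 to 0.042. In groups of 2 libraries these correlations repeat, so the 12 are not independent, and shared handling was not tested. Over all genes the count of 1041 became 3123 with DESeq2, 2077 with the replicate block, 682 without a filter, 576 above 10 CPM and 0 to 3188 with 1 library left out. The cause was not tested.

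With 1 library left out, the log2 fold changes spanned -1.28 to 1.22 for CCND1, -0.68 to 0.061 for CCND2, -0.23 to 0.30 for CCND3, -0.57 to 0.53 for CCNE1, -0.19 to 0.20 for CDK4, -0.08 to 0.16 for CDK6, -0.50 to -0.21 for CDK2, -0.28 to -0.003 for RB1, -0.84 to -0.13 for E2F1 and 0.195 to 0.38 for CDKN2A. The differences in share spanned -3.44 to 13.4 points for CCND1, -14.8 to -1.58 for CCND2, -3.08 to 5.02 for CCND3, -3.24 to 1.68 for CDK4, 10.3 to 15.4 for CCNE1 and 1.56 to 5.29 for RB1. In the fit of 4 cell numbers the calls of LIN37, AURKA and CCNB1 were lost, at edgeR adjusted p of 0.112, 0.114 and 0.127. For 10 against 1000 cells the genes called numbered 0 to 2 with 1 library left out, and for 100 against 1000 cells 0 to 6. No other alternative, the block included, called any of the 10 in these comparisons. Over all genes, the count of 0 for 10 against 1000 cells became 195 with DESeq2, 123 without a filter, 9 above 10 CPM, 55 with the replicate block and 13 to 4721 with 1 library left out. For 100 against 1000 cells it became 1, 31, 0, 20 and 3 to 4951.

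With a limit of 0.5 in place of 1, 2 of the 10 genes stood apart in Single Cell Rep 1, 4 in Single Cell Rep 2 and 5 in Single Cell Rep 3, where 44.2%, 43.8% and 50.6% of all genes did. With library totals alone 5 did in Single Cell Rep 3, CCND3 and E2F1 being added, where 35.3% of all genes did. Each of the 10 had at least 146 counts per library, and since PCR copies were not told apart, the number of molecules behind them is unknown.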
